A study of Rattus norvegicus with 4 samples.

Results

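Mrgprg-positive fascia fibroblasts are cells of the rat abdominal midline fascia that hold matrix-gene RNA and at least 1 molecule of Mrgprg RNA. They numbered 4820 of 38282 deposited cells, and of 34904 cells that passed quality filters (at least 300 genes, at most 20% mitochondrial RNA). Members were chosen by 3 kinds of measured value in each cell. The first was a stromal gate: Col1a1, Col1a2, Col3a1, Dcn, Mfap5 and Serpinf1 together had to reach 30 unique molecular identifiers (UMIs, each 1 captured RNA molecule) per 10000, with no UMI of Ptprc or Pecam1. The second was at least 1 Mrgprg UMI, and the third was that Myoc and Igfbp3 were not both detected. Gate cells with no Mrgprg UMI, 11955 in all, are called Mrgprg-negative and were compared within the same library.

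Single cells were captured in droplets and RNA was counted at the 3′ end. The acupuncture group was fascia of rats in which Salmonella had induced dysentery and which were then treated by acupuncture, and the dysentery group was fascia of rats with the same induced dysentery. Each group had 2 libraries, named here by group and replicate. The labels give no strain, sex or age, and do not state if each library had its own animal, so every p measures the spread between these libraries alone, which may be technical. The groups follow the library titles, the descriptions and the design text; the treatment field of all 4 libraries names the other group, so each direction between groups rests on the titles. No batch is given in the labels, so a batch and the group cannot be told apart.

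Fascia fibroblasts make the collagen and hyaluronan layers over which tissue planes slide. In mice, fibroblasts marked by Pi16 and Dpp4 form an adventitial population that sits around vessels and in fascia and is often described as a progenitor-like state. Mrgprg encodes an orphan receptor of the Mas-related family, G protein-coupled receptors best known from itch and pain neurons. Gfpt2 starts the hexosamine pathway, which supplies the N-acetylglucosamine of hyaluronan, and Fndc1 encodes a protein with fibronectin type III repeats.

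The members carried fibroblast RNA. All 12 fibroblast markers outside the gate were detected in the members of each library, at a summed 23943 and 27041 CPM (UMIs per 1000000 UMIs of the summed cells) in the acupuncture libraries and 24579 and 24593 CPM in the dysentery libraries. Leukocytes without stromal RNA had between 400 and 570.3 CPM of the same markers. Perineurium and Schwann cell markers summed to 6.31 and 6.55 CPM in acupuncture members, mesothelium markers to at most 1.09 CPM and tendon markers to at most 2.21 CPM. Other types' RNA was higher: platelet and erythrocyte markers summed to 170 and 606 CPM in acupuncture members and 57.1 and 164 CPM in dysentery members. Dendritic cell markers summed to 136 and 150 CPM, and 370 and 269 CPM. Mrgprg-negative cells had 27339 and 24275 CPM, and 26110.5 and 27625.5 CPM, of the fibroblast markers. Between the classes, 3 of these 12 markers were higher in members and 7 lower. The label of fibroblast had its markers in both classes. Sensory neuron markers, the cell type in which Mas-related receptors are best known, summed to 114 and 58.1 CPM in acupuncture members and 33.4 and 18.1 CPM in dysentery members, nearly all of it Tubb3, a tubulin, at 111 and 57.9 CPM against 32.2 and 17.8 CPM.

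Members were somewhat deeper than Mrgprg-negative cells in each library. Members had a median of 8382 and 9341 UMIs in the acupuncture libraries and 7706 and 7527 in the dysentery libraries, and Mrgprg-negative cells had 6754.5 and 9153, and 6838 and 5886. Median mitochondrial RNA lay between 2.27% and 3.05% in members and between 2.51% and 3.46% in Mrgprg-negative cells. Members contributed 9504678, 3663787, 2362520 and 23533204 UMIs in the 2 acupuncture and the 2 dysentery libraries, so dysentery replicate 1 gives the least precise member sums. Libraries shared 152 cell barcodes over all pairs, 2 of them between members.

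Mrgprg RNA was concentrated in these cells. Members held 89.9% and 89.7% of all Mrgprg UMIs in acupuncture replicates 1 and 2, and 87.2% and 90.4% in dysentery replicates 1 and 2. Their Mrgprg level was 1175 and 736 CPM in acupuncture libraries, against 532 and 769 CPM in dysentery libraries. A member had a median of 5 and 3 Mrgprg UMIs in the acupuncture libraries and of 2 and 4 in the dysentery libraries, with the highest cell at 112. These values chose the cells and are a description. In the RefSeq annotation of GRCr8, a newer rat assembly than the one named for these files, Mrgprg lies next to Mrgpre, and how reads shared by neighbours or near copies were counted is not given in the sources used here, so both levels are uncertain to that extent.

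The share of gate cells that were members varied several-fold between libraries of the same group. To remove the effect of depth on detection, each gate cell was thinned to 2000 UMIs, and 516, 454, 381 and 548 shallower cells were left out of the 2 acupuncture and the 2 dysentery libraries. The share was then 20.6% (95% exact binomial interval 19.2% to 22.0%) and 6.02% (5.23% to 6.90%) in acupuncture replicates 1 and 2, and 7.09% (6.07% to 8.21%) and 35.1% (33.9% to 36.4%) in dysentery replicates 1 and 2. Intervals cover counting error only. Dysentery replicate 2 was highest and acupuncture replicate 2 lowest, so the groups overlapped. Without thinning the shares were 27.0% and 10.0% in acupuncture libraries and 11.2% and 47.6% in dysentery libraries.

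The group means were 13.3% ± 10.3 with acupuncture and 21.1% ± 19.8 in dysentery (SD, n = 2 each), a difference of -7.81 percentage points. The two-sided exact permutation test gave p = 0.667, and 4 libraries cannot give a p below 0.333. Without dysentery replicate 2 the difference turned to 6.21 percentage points. Leukocytes without stromal RNA, which should lack Mrgprg, held a Mrgprg UMI in 0.583% and 0.0242% of acupuncture cells and 0.106% and 0.389% of dysentery cells at the same thinned depth, with median depths before thinning of 8428 and 9829, and 6856.5 and 7589 UMIs. The gate cell shares were far above that leukocyte background in each library. Those leukocytes were chosen to lie below the stromal gate, so leukocytes with stray stromal RNA are not in that background. Among all cells outside the gate, without thinning, 3.79% and 0.971% held a Mrgprg UMI in the acupuncture libraries and 1.66% and 8.25% in the dysentery libraries. Pecam1-positive cells without Ptprc, chosen without regard to stromal RNA, were higher than leukocytes. Without thinning, 4.90% and 2.70% of them held a Mrgprg UMI in the acupuncture libraries and 6.11% and 24.3% in the dysentery libraries.

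**Figure D1:**
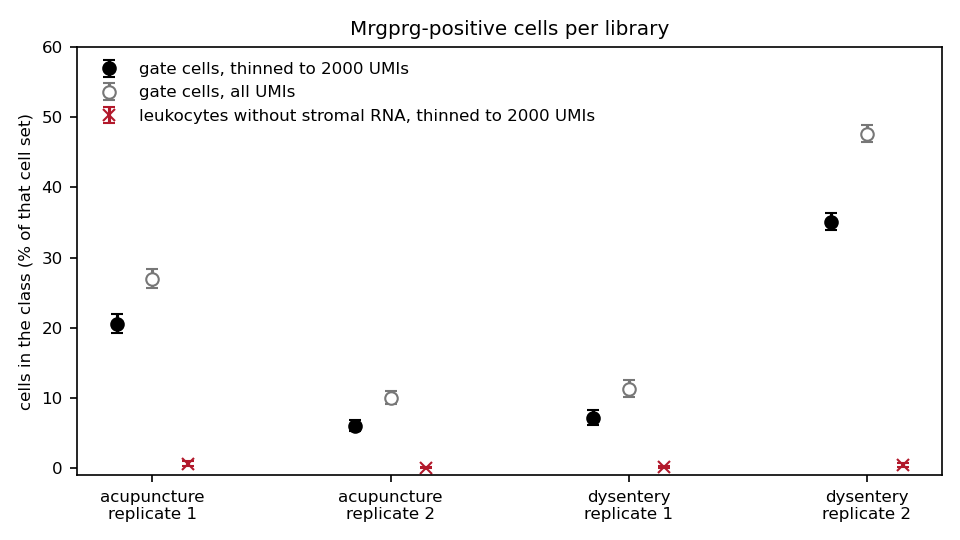
Percent of cells that were Mrgprg-positive (y axis) in each library (x axis), with 95% exact binomial intervals, for gate cells thinned to 2000 UMIs, gate cells with all UMIs, and leukocytes without stromal RNA. The thinned gate shares were 20.6% and 6.02% with acupuncture and 7.09% and 35.1% in dysentery, and leukocytes stayed at or below 0.583%.

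Cells just inside and just outside the rule were compared without a test. Pi16, which encodes a peptidase inhibitor, stood at 4143 and 4307 CPM in acupuncture members with exactly 1 Mrgprg UMI, against 2775 and 3126 CPM in Mrgprg-negative cells of the same libraries. In dysentery it stood at 3046 and 3321 CPM in members with 1 Mrgprg UMI, against 1610 and 1922 CPM in Mrgprg-negative cells. Members with 5 or more Mrgprg UMIs had 4535 and 4662 CPM of Pi16 with acupuncture and 4157 and 4240 CPM in dysentery. For Pi16 the cells with 1 UMI thus lay nearer to the cells with many than to those with none in each library. Other genes differed: Gfpt2 in dysentery replicate 1 was at 736 CPM with 1 Mrgprg UMI and 983 CPM with 5 or more, against 524 CPM with none, and Cd34 at 62.8 and 116 CPM, against 65.4 CPM. Igfbp3, an insulin-like growth factor carrier used by the rule, was at 20.4 and 18.9 CPM in acupuncture members with 5 or more Mrgprg UMIs and at 730 and 288 CPM in Mrgprg-negative cells. The Mrgprg-positive cells left out for holding both Myoc and Igfbp3 numbered 25 and 6 in the acupuncture libraries and 3 and 16 in the dysentery libraries. At the gate's edge, 2 members of acupuncture replicate 1 lay between 30 and 40 gate UMIs per 10000 and no Mrgprg-positive cell lay between 20 and 30.

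Gfpt2 and Fndc1, named for these cells with the data in view, are given as values. Gfpt2 was at 739 and 559 CPM in acupuncture members, against 432 and 364 CPM in Mrgprg-negative cells of those libraries. In dysentery it was at 839 and 1024 CPM in members, against 524 and 626 CPM in Mrgprg-negative cells. The gene was therefore higher in members of each of the 4 libraries, while being readily detected outside them: at the thinned depth it was found in 66.5% and 59.9% of acupuncture members and 49.4% and 42.0% of Mrgprg-negative cells. Fndc1 differed less, at 1387 and 1487 CPM in acupuncture members against 1205 and 1254 CPM in Mrgprg-negative cells, and at 1956 and 1753 CPM in dysentery members against 1512 and 1576 CPM in Mrgprg-negative cells.

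The first comparison asked which other genes differed between members and Mrgprg-negative cells of the same library. For each library and class the UMIs of all cells were added up, and the sums were tested with edgeR's quasi-likelihood test with the library as a block, adjusted by Benjamini-Hochberg over 12356 genes. At an adjusted p under 0.05, 1277 genes differed, 10.3% of those tested: 494 were higher in members, 4% of those tested, and 783 were lower, 6.34%. Mrgprg was named as a marker with these data in view, so these differences are not independent support for the class. Mrgprg-negative cells are a mixture, which can include cells whose Mrgprg RNA was missed.

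Most adventitial fibroblast genes were higher in members. Of 19 listed and tested, 14 were higher and 2 lower, where 4% of all tested genes were higher and 6.34% lower. The list's median log2 fold change was 0.39 against 0.0027 over all tested genes. This list and those below were chosen with earlier results of these data known, so their counts are descriptions. Pi16 was at 4522 and 4591 CPM in acupuncture members and 3674 and 3875 CPM in dysentery members, against 2775 and 3126 CPM, and 1610 and 1922 CPM, in Mrgprg-negative cells (log2 fold change 0.86, SE 0.09, edgeR adjusted p = 1e-04). All 4 member values lay above all 4 Mrgprg-negative values. Dpp4, a cell-surface peptidase, was at 668, 637, 665 and 681 CPM in members of the 2 acupuncture and the 2 dysentery libraries, against 430, 486, 501 and 540 CPM in Mrgprg-negative cells (log2 fold change 0.44, SE 0.06). Efhd1, a mitochondrial calcium-binding protein gene, was higher by 0.93, Anxa3 by 0.73, Wnt2 by 0.68, Sema3c by 0.45 and Cd34 by 0.39 on the log2 scale. The 2 lower genes were Dpt (-0.37) and Pdgfra (-0.27), Pdgfra with adjusted p = 0.0502 without acupuncture replicate 1. Pi16 and Dpp4 were found together in 71.2% and 69.6% of acupuncture members and 67.0% and 70.5% of dysentery members at the thinned depth, against 45.4% and 51.3%, and 45.2% and 51.4%, of Mrgprg-negative cells. Without cells holding 3 or more UMIs of other cell types' markers, 9 of these genes were higher and 2 lower. That filter used markers of leukocytes, vascular endothelium, mural cells and keratinocytes. It did not use those of erythrocytes, mammary epithelium, adipocytes or Schwann cells. The cells it left out are called cells holding other types' RNA below, but a fixed count leaves out deeper cells more readily. Its mural marker Abcc9 had 876 and 370 UMIs in acupuncture members and 232 and 1229 in dysentery members. In Mrgprg-negative cells Abcc9 had 2341 and 3030 UMIs, and 1968 and 1729 UMIs. Whether this RNA was the fibroblasts' own was not tested.

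Telocytes, the interstitial cells named in the study's title, are usually marked by Cd34 with Pdgfra, and in this comparison those genes went in opposite directions. Cd34 and Pdgfra were found together in 11.6% and 7.96% of acupuncture members and 10.4% and 6.71% of dysentery members at the thinned depth. The shares in Mrgprg-negative cells were 9.08% and 5.74% with acupuncture and 7.56% and 5.54% in dysentery. With all UMIs, which detect more in deeper cells, the shares were 49.8% and 47.0% of acupuncture members and 40.9% and 33.6% of dysentery members, against 36.1% and 37.4%, and 29.3% and 25.3%, of Mrgprg-negative cells. Cells with UMIs of Cd34, Pdgfra and Ptgs2 were at most 2.06% of members and at most 1.73% of Mrgprg-negative cells at the thinned depth. With all UMIs they were 19.7% and 26.8% of acupuncture members and 8.58% and 12.5% of dysentery members, against 9.91% and 20.1%, and 4.60% and 6.17%, of Mrgprg-negative cells.

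**Figure D2:**
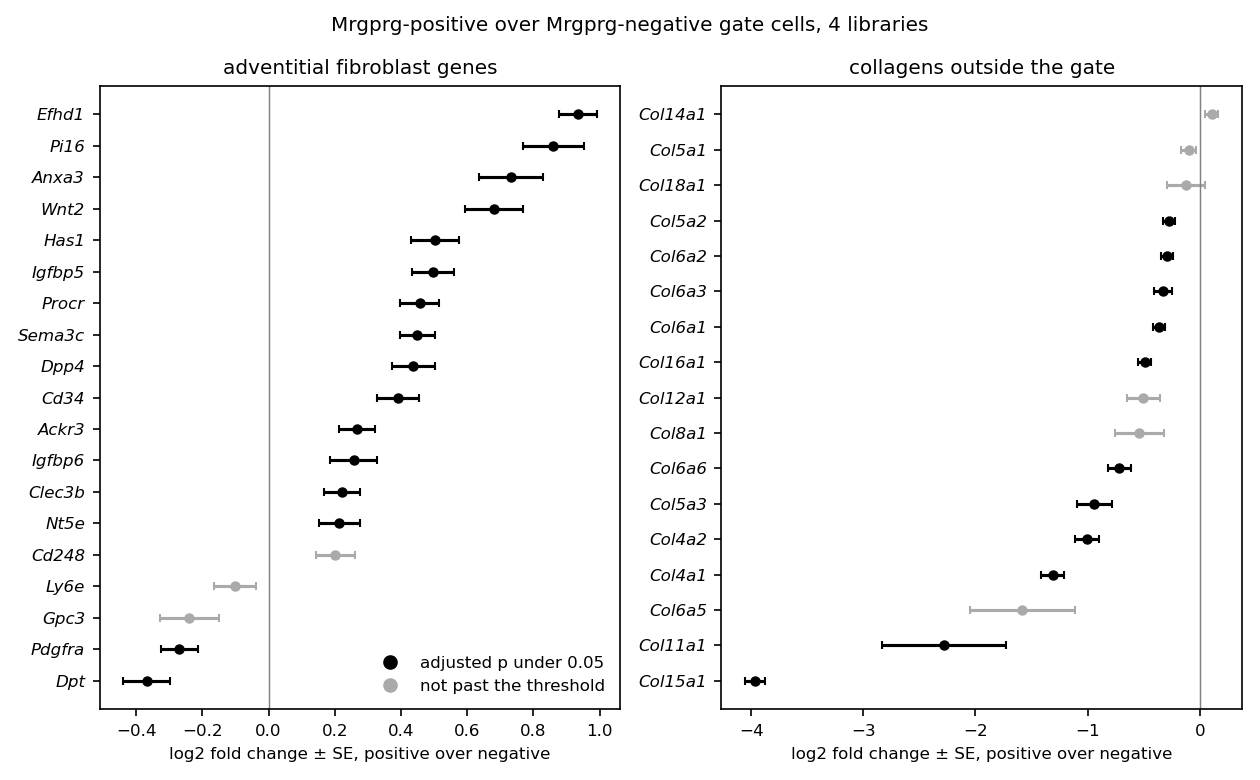
Log2 fold change of Mrgprg-positive over Mrgprg-negative gate cells (x axis, bars are SE) for each tested gene (y axis) of the adventitial list and of the collagens outside the gate. In the adventitial list 14 of 19 genes were higher and 2 lower, and of the 17 collagens 11 were lower and none was higher.

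Of 21 tested genes of hexosamine and hyaluronan metabolism, 4 were higher and none lower: Gnpnat1 (log2 fold change 0.76, SE 0.06), Has2 (0.72, SE 0.06), Has1 (0.50, SE 0.07) and Uap1 (0.45, SE 0.05). The list's median was -0.056 and 9 of the 21 had a positive value. The precursor genes Gfpt1 (-0.063), Pgm3 (0.061) and Ugp2 (-0.077) did not pass. Gnpnat1 and Uap1 encode enzymes of UDP-N-acetylglucosamine synthesis, and Has1 and Has2 encode hyaluronan synthases. Has2 was at 185 and 163 CPM in acupuncture members and 149 and 139 CPM in dysentery members, against 113 and 103 CPM, and 76.7 and 93.2 CPM, in Mrgprg-negative cells. Its member values all lay above its Mrgprg-negative values.

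Collagens outside the gate and contractile genes were lower in members. Of 17 tested collagens, 11 were lower and none higher. Col15a1, a basement membrane zone collagen, was at 8.42 and 4.91 CPM in acupuncture members and 3.39 and 3.87 CPM in dysentery members, against 123 and 94.4 CPM, and 60.5 and 59.8 CPM, in Mrgprg-negative cells (log2 fold change -3.96, SE 0.09, edgeR adjusted p = 3.2e-10). The type IV collagen genes Col4a1 and Col4a2 were both lower, Col4a1 by a log2 fold change of -1.31, while the type VI genes Col6a1, Col6a2 and Col6a3 lay between -0.36 and -0.29. Col6a3 did not pass without acupuncture replicate 1 (-0.36) or dysentery replicate 2 (-0.20). Of 15 myofibroblast and contractile genes, 9 were lower and none higher, with Tagln at -4.30, Acta2 at -3.60 and Tpm2 at -3.04; these are also expressed by mural cells, 4 of whose 6 tested markers were lower. Without cells holding other types' RNA, 10 collagens, 2 contractile genes and no mural marker were lower. Mural markers, Acta2 among them, were among the genes that picked the cells left out, so their counts here are no independent test.

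Of 21 adhesive and matricellular genes, 9 were lower and none higher, among them Thbs4 (log2 fold change -5.33, SE 0.23), Nid2 (-3.60, SE 0.17), Cilp (-3.39, SE 0.32) and Ccn2 (-2.50, SE 0.12), the last encoding connective tissue growth factor. Among elastic fibre and microfibril genes 4 of 20 were higher and 7 lower, with Fbln7 at -4.93 and Emilin2 at 0.40. Among leucine-rich proteoglycans, whose median was 0.0042, 3 of 7 were lower, Bgn (biglycan) at -2.09, Lum (lumican) at -1.59 and Ecm2 at -0.49, and Aspn was higher at 0.29, short of the threshold without acupuncture replicate 1 (0.31) or dysentery replicate 1 (0.19). Bgn was at 75.4 and 145 CPM in acupuncture members and 44.4 and 27.2 CPM in dysentery members, against 366 and 410 CPM, and 181 and 155 CPM, in Mrgprg-negative cells.

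Signals that shape the cell neighbourhood moved both ways. Of 40 tested growth factor and niche genes, 11 were higher in members and 17 lower. The higher ones included the bone morphogenetic protein genes Bmp6 (log2 fold change 1.17, SE 0.30), Bmp7 (1.05, SE 0.06), Bmp3 (0.83, SE 0.12) and Bmp2 (0.60, SE 0.09), the Wnt ligands Wnt10b (0.93) and Wnt2 (0.68), and Rspo3 (0.84), which amplifies Wnt signals. The lower ones included Gdf10 (-4.22), the Wnt antagonist Sfrp1 (-2.39), Rspo1 (-2.32), Bmp5 (-2.32) and Igf1 (-1.08). Bmp6 did not pass without acupuncture replicate 1 (1.11) or dysentery replicate 2 (1.05), nor Bmp5 without acupuncture replicate 1 (-1.87). Bmp7 was at 73.0 and 68.0 CPM in acupuncture members and 110 and 134 CPM in dysentery members, against 34.6 and 33.5 CPM, and 49.6 and 68.2 CPM, in Mrgprg-negative cells of the same libraries. It was higher in members of every library, although both classes stood lower in the acupuncture libraries.

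Among cytokines and chemokines 3 of 21 were higher in members and 6 lower. Il33, an alarmin stored in stromal nuclei, was at 1370 and 1318 CPM in acupuncture members and 1979 and 2241 CPM in dysentery members, against 860 and 924 CPM, and 1406 and 1490 CPM, in Mrgprg-negative cells (log2 fold change 0.56, SE 0.06, edgeR adjusted p = 1e-04). Il34, a ligand of the macrophage receptor Csf1r, was higher by 0.81 and the neutrophil chemokine gene Cxcl1 by 0.56, which without acupuncture replicate 1 was 0.44 and did not pass. Cxcl14 (-4.58), the B cell chemokine gene Cxcl13 (-1.96) and Cxcl12 (-0.87) were lower. The prostaglandin synthase genes Ptgs1 (0.88, SE 0.13) and Ptgs2 (0.74, SE 0.18) and the phospholipase gene Pla2g4a (0.37, SE 0.07) were higher, whereas the secreted phospholipase gene Pla2g2a (-2.65, SE 0.12) and Ptgfr, with no UMI in members, were lower. Ptgs2 was 0.45 without acupuncture replicate 1, 0.79 without dysentery replicate 1 and 0.71 without dysentery replicate 2, none past the threshold. Pla2g4a was at 0.32 and 0.31 without dysentery replicate 1 or 2 and did not pass. Complement and acute phase genes had 6 of 16 lower and none higher, with C3 at -0.96 and C4a at -0.55.

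Among genes that had no part in choosing the cells, averaged at least 20 CPM in the higher class and had the same direction in all 4 libraries, the 10 largest rises were Daglb (log2 fold change 1.57, SE 0.10), which makes the endocannabinoid 2-arachidonoylglycerol, Hba-a2 (1.52, SE 0.29), Cntn2 (1.36, SE 0.11), a contactin of neural adhesion, Gh1 (1.31, SE 0.13), growth hormone, Olfml2a (1.31, SE 0.10), Pthlh (1.20, SE 0.09), parathyroid hormone-related protein, Chst1 (1.20, SE 0.12), a keratan sulfate sulfotransferase, Mrgpre (1.14, SE 0.11), Dact2 (1.08, SE 0.08), a Wnt pathway modulator, and Bmp7. Daglb was at 1455 and 1140 CPM in acupuncture members and 734 and 1006 CPM in dysentery members, against 425 and 300.5 CPM, and 285 and 434 CPM, in Mrgprg-negative cells, with no overlap. Mrgpre, the neighbour of Mrgprg, was at 65.9 and 43.9 CPM in acupuncture members and 36.0 and 32.0 CPM in dysentery members, against 22.8 and 22.2 CPM, and 16.0 and 18.0 CPM, in Mrgprg-negative cells. Its log2 fold change was 0.75 without cells holding other types' RNA, where Hba-a2, a haemoglobin gene with near copies, turned to -0.71. Haemoglobin genes were not among the markers of that filter.

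Under the same limits the 10 largest falls were Apod (log2 fold change -5.18, SE 0.61), a lipocalin, Obp3 (-4.38, SE 0.13), of a lipocalin family with near copies that counting may split, Stmn2 (-4.27, SE 0.14), a stathmin known from neurons, Col15a1, Spon1 (-3.92, SE 0.24), Smoc2 (-3.78, SE 0.17), Igfbp7 (-3.63, SE 0.14), Nid2, Cck (-3.51, SE 0.38) and Cyp1b1 (-3.50, SE 0.23). Igfbp7, an insulin-like growth factor binding protein, was at 27.6 and 62.8 CPM in acupuncture members and 41.9 and 31.2 CPM in dysentery members, against 481 and 485 CPM, and 494 and 441 CPM, in Mrgprg-negative cells. Its Mrgprg-negative levels were close in all 4 libraries and stood far above every member level. Apod was at 2.42, 2.18, 2.12 and 1.57 CPM in members, and its fold change was -3.14 without dysentery replicate 2. Of all tested genes, 28.1% had the same direction in all 4 libraries.

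**Figure D3:**
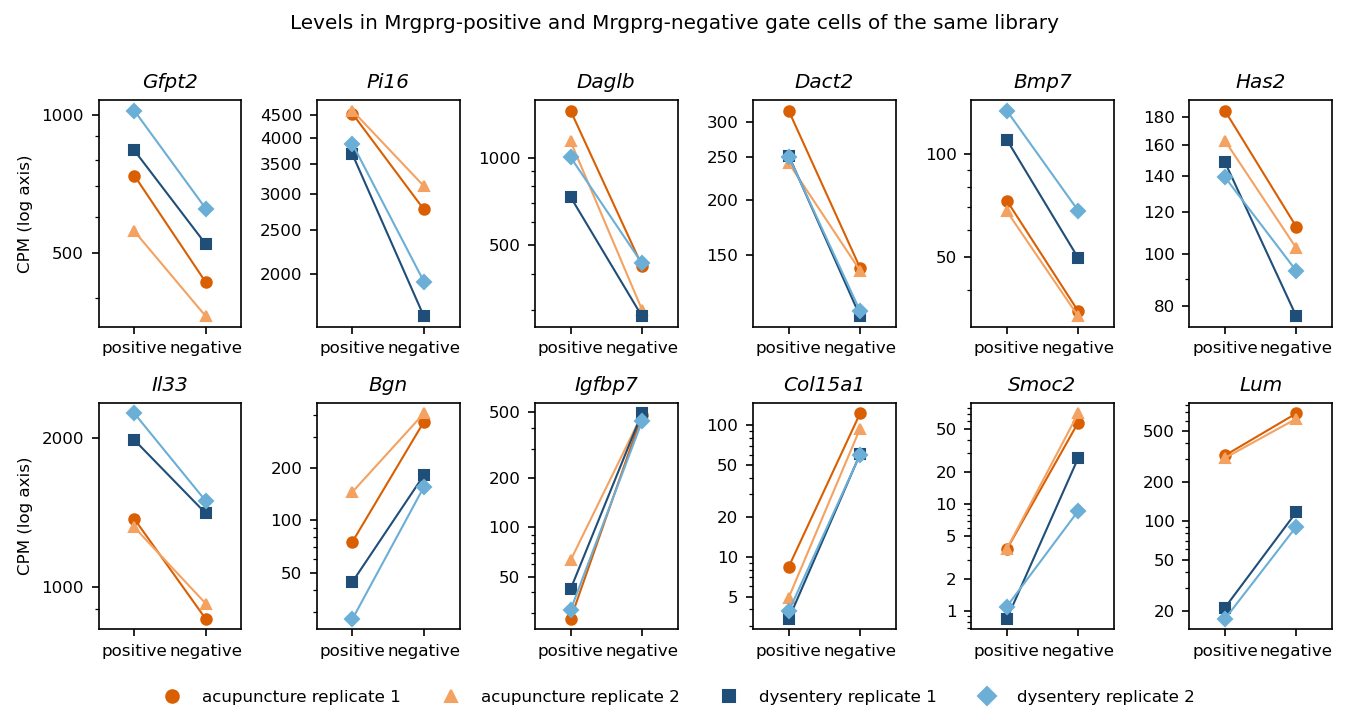
Levels in CPM (y axis, log scale, 1 panel per gene) in Mrgprg-positive and Mrgprg-negative gate cells (x axis), with lines joining the classes of 1 library. Gfpt2 to Il33 were higher in the positive cells of all 4 libraries, and Bgn to Lum were lower in all 4.

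Markers of other cell types were counted beside this comparison. None of 11 tested macrophage markers was higher in members and 1 was lower, and 4 of 5 perineurium and Schwann markers, 2 of 4 endothelial markers and 2 of 2 adipocyte markers were lower. The 2 higher markers of platelets and erythrocytes were Hba-a2 and Hba-a3, of which Hba-a3 (0.46) did not pass when any 1 library was left out. The part of such RNA in these differences was not tested, and no doublet caller was run. Leaving out cells with 3 or more UMIs of other types' markers kept 31 to 1387 members per library. The kept members were shallower, with a median of 5071.5 and 3603 UMIs with acupuncture and 3417 and 6132 UMIs in dysentery. With those cells left out, 565 genes differed, 504 of them among the 1277. The count was 825 with Mrgprg-negative cells matched on UMIs and 822 without acupuncture replicate 1. Mrgprg-negative cells kept 440 and 367 cells positive for both Myoc and Igfbp3 in the acupuncture libraries and 161 and 176 in the dysentery libraries, and 927 genes differed without them. Of 192 listed genes that passed, between 18 and 49 lost the call when 1 library was left out.

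The second comparison asked what differed with acupuncture inside these cells. Of 10909 genes tested with edgeR's quasi-likelihood test on the 4 member sums, 359 differed, 3.29% of those tested: 249 were higher with acupuncture, 2.28%, and 110 lower, 1.01%. The 2 groups of libraries did not overlap for 44.9% of all tested genes, so a lack of overlap alone says little here. The count was 733 without acupuncture replicate 2, 836 without dysentery replicate 1 and 240 without dysentery replicate 2, where the lone library of a group was assumed to vary like the others.

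Most immediate early genes, which cells switch on within minutes of a stimulus, rose. Of 24 tested, 17 were higher with acupuncture and none lower, with a median log2 fold change of 1.85 against 0.0036 over all genes. Atf3, a stress-induced transcription factor gene, was at 966 and 928 CPM in acupuncture members, against 48.7 and 35.4 CPM in dysentery members (log2 fold change 4.54, SE 0.20, edgeR adjusted p = 5.7e-06). Egr1 was at 2163 and 2080 CPM with acupuncture, against 302 and 197 CPM in dysentery (3.11, SE 0.22), and Jun at 3677 and 3770 CPM, against 748 and 612 CPM (2.47, SE 0.19). Fos, at 2270 and 2955 CPM with acupuncture and 697 and 872 CPM in dysentery, changed less (1.74, SE 0.23). Heat shock genes had 9 of 17 higher and none lower, with Cryab at 2.28, Dnajb4 at 2.26 and Hsph1 at 1.65. Without cells holding other types' RNA, 7 immediate early genes and 4 heat shock genes were higher and none lower.

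Cytokine and chemokine genes rose in part. Of 18 tested cytokines and chemokines 9 were higher with acupuncture and 1, Cxcl13, was lower, with a median log2 fold change of 1.65. Il6, which encodes interleukin 6, had 1629 and 456 UMIs in acupuncture members, or 171 and 124 CPM, against 0 and 9 UMIs in dysentery members. A count of 0 in dysentery replicate 1 allows a level of up to 1.27 CPM (3 UMIs), and dysentery replicate 2 stood at 0.382 CPM. The fitted log2 fold change of Il6 was 8.67 (SE 0.33, edgeR adjusted p = 5.4e-06), which depends on the prior count with a library at 0. Il6 was detected in 12.0% and 10.6% of acupuncture members at the thinned depth and in 19.1% and 20.8% with all UMIs, against 0% and 0.102%, and 0% and 0.293%, of dysentery members. A cell with no UMI is not shown to lack the RNA.

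The chemokine genes Cxcl3 (log2 fold change 6.20, SE 0.46), Cxcl1 (4.66, SE 0.37), Cxcl2 (4.20, SE 0.86), Ccl2 (3.13, SE 0.22), Cxcl10 (2.30, SE 0.21), Ccl7 (2.29, SE 0.31) and Cxcl9 (1.31, SE 0.20), which attract neutrophils, monocytes and T cells, were higher with acupuncture. Cxcl1 was at 1737 and 2092 CPM in acupuncture members, against 45.3 and 100.2 CPM in dysentery members. Ccl2 was at 2136 and 1399 CPM with acupuncture, against 218 and 187 CPM in dysentery. Cxcl2 had 183 and 306 UMIs in acupuncture members, against 20 and 35 UMIs in dysentery members. Neutrophil markers summed to 55.4 and 300.5 CPM, and 141 and 96.8 CPM, in the same members. The part of neutrophil RNA in the Cxcl2 difference was not tested. Without dysentery replicate 2, Cxcl2 (2.62) and Cxcl9 (1.20) did not pass, and without acupuncture replicate 2 Cxcl2 was 2.71. Ptx3, a pentraxin that stabilises hyaluronan matrix and binds microbes, was at 122 and 125 CPM, against 3.81 and 1.66 CPM (5.94, SE 0.26). For Cxcl1, Ccl2 and Ptx3 both acupuncture libraries lay far above both dysentery libraries.

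Of 18 tested NF-kB response genes, 7 were higher and none lower, with a median of 0.49 and with Nfkbiz (4.44, SE 0.22), Nfkbia (2.30, SE 0.23) and Bcl3 (2.23, SE 0.30) the largest rises. Tnip1 (-0.63) and Nfkbie (0.44) did not pass. Nfkbiz was at 233 and 168 CPM in acupuncture members, against 12.3 and 8.07 CPM in dysentery members. Of the 10 named genes with the largest rises, 7 had a promoter window (250 bases before to 50 after the start) in the RefSeq table of GRCr8. An NF-kB motif, the letters GGG, any 2 bases and then TTTCC, was searched on both strands and stood in 3 of these 7, Il6, Cxcl1 and Nfkbiz, against 1.51% of all 27457 promoters. The cyclic AMP response element TGACGTCA stood in 1 of the 7, Il6, against 1.91% of all promoters, and the AP-1 motif TGANTCA, searched on both strands too, in 1, Olah, against 7.33%. The letters TATAAA, also searched, stood in 0 of the 7, against 14.3% of all promoters, and are not marked. Ptx3, Nfil3, Olah and Gdf15 rose too and had no NF-kB match. The genes were picked by their rise in these data, and a role of NF-kB was not tested. The 3 windows with the NF-kB letters are shown because they hold those letters. Capitals mark the matches to the NF-kB, cyclic AMP and AP-1 motifs. Il6 lies on the minus strand at chr4:5894526-5894825 and Cxcl1 on the minus strand at chr14:17479272-17479571 (GRCr8). Nfkbiz lies on the plus strand at chr11:58251471-58251770 (GRCr8).
Il6: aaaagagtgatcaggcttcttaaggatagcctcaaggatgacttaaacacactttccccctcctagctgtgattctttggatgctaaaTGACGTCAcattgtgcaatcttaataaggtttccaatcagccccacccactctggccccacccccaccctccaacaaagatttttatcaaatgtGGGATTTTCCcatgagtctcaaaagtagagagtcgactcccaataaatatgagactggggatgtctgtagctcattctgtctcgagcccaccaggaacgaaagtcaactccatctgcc
Cxcl1: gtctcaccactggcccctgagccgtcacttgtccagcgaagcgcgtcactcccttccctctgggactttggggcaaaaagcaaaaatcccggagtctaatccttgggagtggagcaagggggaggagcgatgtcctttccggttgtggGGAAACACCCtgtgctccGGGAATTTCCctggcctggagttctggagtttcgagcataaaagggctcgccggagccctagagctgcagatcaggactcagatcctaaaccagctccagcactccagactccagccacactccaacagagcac
Nfkbiz: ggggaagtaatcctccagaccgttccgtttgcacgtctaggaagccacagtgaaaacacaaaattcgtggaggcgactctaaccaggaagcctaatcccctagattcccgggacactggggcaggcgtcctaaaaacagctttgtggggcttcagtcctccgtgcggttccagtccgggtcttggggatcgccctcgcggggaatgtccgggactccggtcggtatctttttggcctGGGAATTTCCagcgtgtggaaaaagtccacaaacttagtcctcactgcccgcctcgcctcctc
In Il6 the response element lies upstream of the NF-kB match, in Cxcl1 the NF-kB letters occur 2 times, once on each strand, and in Nfkbiz they occur 1 time near the end of the window. A match of letters is a description and not a measured site.

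**Figure D4:**
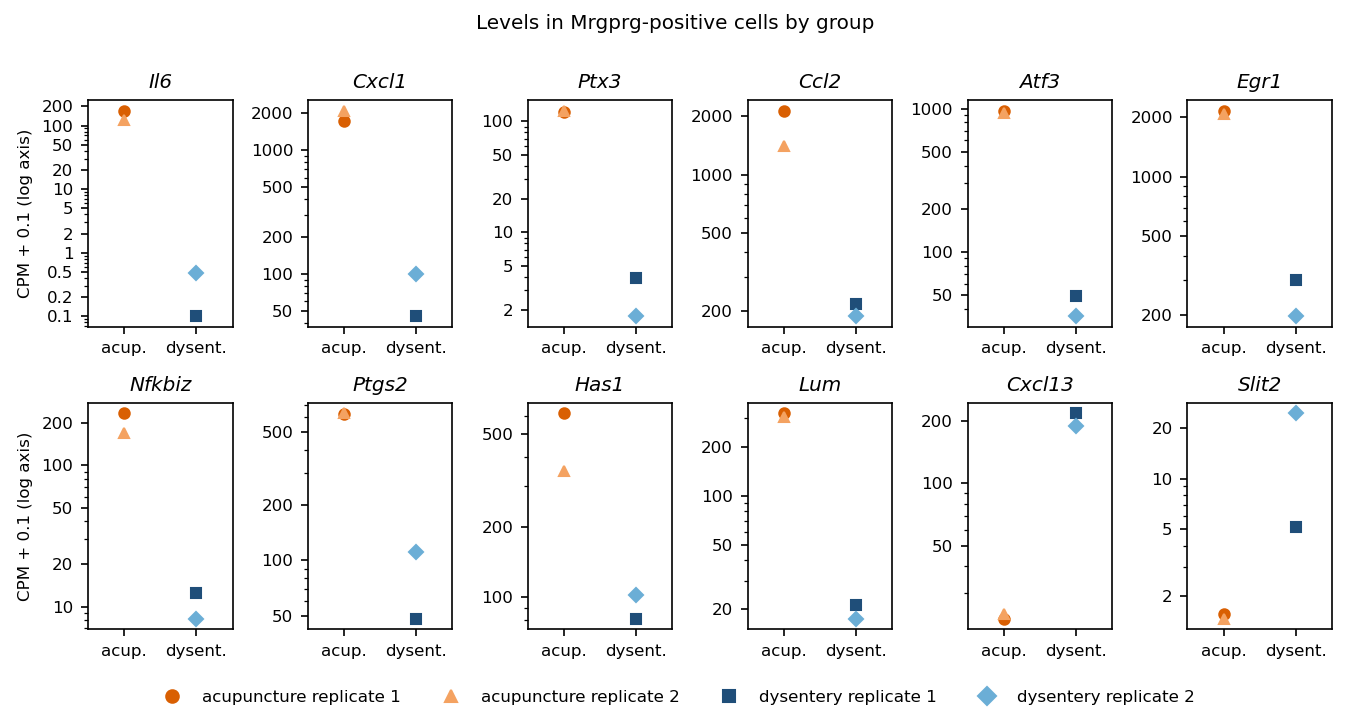
Levels in CPM plus 0.1 (y axis, log scale, 1 panel per gene) in Mrgprg-positive cells of the acupuncture and dysentery libraries (x axis, 2 points per group). Il6 to Lum were higher in both acupuncture libraries, with Il6 at 171 and 124 CPM against 0 and 0.382 CPM, and Cxcl13 and Slit2 were lower.

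Prostaglandin genes differed in both directions. Ptgs2, which encodes the inducible cyclooxygenase and names the cells of the study's title, was at 622 and 631 CPM in acupuncture members, against 47.8 and 111 CPM in dysentery members (log2 fold change 2.92, SE 0.34, edgeR adjusted p = 0.0016). Ptgs1, the constitutive cyclooxygenase gene, was at 32.0 and 25.7 CPM with acupuncture, against 61.8 and 118 CPM in dysentery (-1.69, SE 0.29), and Hpgd, whose product breaks prostaglandins down, was also lower (-1.83, SE 0.35). Without dysentery replicate 2, Ptgs1 was -1.03 and passed, and Hpgd was -0.96 and did not. Ptgs2 was found in 24.0% and 31.9% of acupuncture members at the thinned depth and in 5.56% and 16.5% of dysentery members.

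Matrix lists differed in how many members passed. Lum was at 322 and 308 CPM in acupuncture members, against 21.2 and 17.3 CPM in dysentery members (log2 fold change 4.08, SE 0.17, edgeR adjusted p = 5.4e-06), and Bgn rose by 1.71, or by 1.12 without acupuncture replicate 2. Of 20 hexosamine and hyaluronan genes, 4 were higher and none lower: Has1 (2.38, SE 0.26), Tnfaip6 (2.79, SE 0.39), whose product transfers proteins onto hyaluronan, Cd44 (0.96) and Stab1 (2.32), hyaluronan receptors, Stab1 being known mainly from macrophages and endothelium. Cd44 and Stab1 did not pass without acupuncture replicate 1 (0.93 and 2.74) or dysentery replicate 2 (0.71 and 2.78). Has1 was at 616 and 347 CPM with acupuncture, against 80.4 and 102 CPM in dysentery. The protease gene Adamts1 rose by 2.24. Of the leucine-rich proteoglycans 2 of 7 were higher, of matrix proteases and inhibitors 3 of 18 and of elastic fibre genes 2 of 19, and none of these was lower. None of 15 tested collagens outside the gate passed the test, and 1 of 19 adventitial genes, Has1, did. Among adhesive proteins Ccn1 (2.25) was higher and Ccn3 (-1.36) lower, and the gate gene Col3a1 was higher by 1.40. Pi16 had a log2 fold change of 0.28 that did not pass.

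Among the other named rises were Nfil3 (log2 fold change 5.84, SE 0.36), a transcription factor gene, Gdf15 (5.06, SE 0.37), a stress-induced cytokine gene, RGD1565462 (4.21, SE 0.39) and Olah (5.34, SE 1.11), a fatty acid thioesterase gene. Olah was at 24.3 and 2.73 CPM with acupuncture, against 2.12 and 0.127 CPM in dysentery, and its values were 2.50 and 2.86 without acupuncture replicate 1 and without dysentery replicate 2, neither past the threshold.

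Among the largest falls with acupuncture were Fxyd6 (log2 fold change -4.01, SE 0.86), a sodium pump regulator, Slit2 (-3.62, SE 0.65), a guidance cue, Cxcl13 (-3.15, SE 0.16), AABR07060872.1 (-2.98, SE 0.45), Chst1 (-2.97, SE 0.47), Olfml2a (-2.59, SE 0.19), Hba-a3 (-2.36, SE 0.48) and Akr1c15 (-2.15, SE 0.22). Cxcl13 was at 22.3 and 23.5 CPM in acupuncture members, against 217 and 189 CPM in dysentery members. Hba-a3, like Hba-a2, is a haemoglobin gene with near copies. Of 4 tested platelet and erythrocyte markers 1 was higher with acupuncture and 1, Hba-a3, was lower. The markers of that list summed to 170 and 606 CPM in acupuncture members, above the 57.1 and 164 CPM of dysentery members. Fxyd6 had 14 and 1 UMIs with acupuncture, against 6 and 609 UMIs in dysentery. Slit2 was at 1.47 and 1.36 CPM, against 5.08 and 24.4 CPM. For Fxyd6 and Slit2 most of the dysentery signal lay in dysentery replicate 2. Fxyd6 had only 6 dysentery UMIs outside that library, and no fold change without it is given here. Without that library Slit2 had -1.76 and Hba-a3 -1.75, both short of the threshold, and Chst1 had -1.84. Without acupuncture replicate 1 the values of Fxyd6 (-5.91), Slit2 (-3.63) and Hba-a3 (-1.46) did not pass.

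Chst1 and Olfml2a, among the genes that set members apart from Mrgprg-negative cells, were thus lower with acupuncture, as was Bmp7 (-0.80, SE 0.16). None of them passed the interaction test given below. In Mrgprg-negative cells Chst1 had 88 and 77 UMIs with acupuncture, against 222 and 550 UMIs in dysentery. The sums of those cells held 21648646 and 32908628 UMIs, and 17361701 and 21031665 UMIs. Bmp7 did not pass without acupuncture replicate 1 (-0.80) or dysentery replicate 2 (-0.58). Olfml2a was at 15.5 and 18.0 CPM in acupuncture members, against 89.3 and 106 CPM in dysentery members. Of 15 tested complement and acute phase genes 3 were lower and 1 higher, among them Lbp (-1.64, SE 0.27) and C4a (-0.79, SE 0.18), which were lower, and Cfd (1.57, SE 0.21), which was higher. C4a did not pass without acupuncture replicate 1 (-0.93) or replicate 2 (-0.65).

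Leukocyte RNA moved with the groups in these sums. Of 11 tested macrophage markers 7 were higher with acupuncture, among them C1qc (log2 fold change 2.61, SE 0.24), C1qb (2.10, SE 0.17) and C1qa (2.06, SE 0.19), and all 11 were detected in members of each library. Their summed level was 424 and 532 CPM in acupuncture members and 255 and 204 CPM in dysentery members, against between 14870 and 24975 CPM in leukocytes. The dendritic cell markers Cd74, RT1-Ba and RT1-Da were lower, between -1.21 and -1.11. Neutrophil markers summed to 55.4 and 300.5 CPM in acupuncture members and 141 and 96.8 CPM in dysentery members. In Mrgprg-negative cells they summed to 139 and 24.7 CPM with acupuncture and 598 and 36.1 CPM in dysentery. Mammary epithelium markers summed to 533 CPM in members of acupuncture replicate 1, 2.18 CPM in acupuncture replicate 2, and 56.3 and 4.63 CPM in dysentery members. The part of this RNA in the other differences was not tested. Without cells holding other types' RNA, none of the 5 macrophage markers still tested passed, and C1qb had 1.26. Macrophage markers were among the genes that picked the cells left out, so this loss of calls is no independent test. With the same cells left out, 128 genes differed, 97 of them among the 359. Lum (4.32), Ccl2 (2.56), Ptgs2 (2.03), Ptgs1 (-1.89) and Has1 (1.74) stayed past the threshold there, with 31 members left in dysentery replicate 1. Without dysentery replicate 2, Csf1r was 0.90 and 3 macrophage markers passed. Of 102 listed genes that passed, between 0 and 26 lost the call when 1 library was left out.

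The third comparison asked whether the acupuncture difference was itself different in members and Mrgprg-negative cells. Of 13030 genes tested for this interaction with edgeR, 9 passed, 0.0691% of those tested, 3 with a higher difference in members, 0.023%, and 6 with a lower one, 0.046%, and 646 had an unadjusted p under 0.05. The count was 139 without acupuncture replicate 1, 98 without acupuncture replicate 2, 43 without dysentery replicate 1 and 6 without dysentery replicate 2. No tested gene of the immediate early, NF-kB, heat shock or cytokine lists passed. A p that misses the threshold does not show that the classes responded alike. Values in the Mrgprg-negative cells were of like order: Il6 was at 92.8 and 137 CPM with acupuncture, against 0.346 and 0.618 CPM in dysentery, and Atf3 at 748 and 909 CPM, against 45.6 and 41.8 CPM.

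Lum passed the interaction test, with a difference 1.34 higher in members on the log2 scale (SE 0.14, adjusted p = 0.0011). In members it was at 322 and 308 CPM with acupuncture against 21.2 and 17.3 CPM in dysentery, and in Mrgprg-negative cells at 683 and 621 CPM against 117 and 90.2 CPM. Members were lower in Lum than Mrgprg-negative cells in every library. As a ratio the gap was wider in dysentery, and in CPM it was wider with acupuncture. Eln, the elastin gene, went the other way (-1.29, SE 0.12): it was at 158 and 183 CPM in acupuncture members against 130 and 148 CPM in dysentery members, and at 355 and 398 CPM against 115 and 138 CPM in Mrgprg-negative cells. Plau, urokinase (-1.16, SE 0.16), was at 104 and 93.3 CPM against 73.6 and 89.2 CPM in members, and at 158 and 146 CPM against 59.7 and 54.6 CPM in Mrgprg-negative cells. Lum (0.98) and Eln (-0.73) did not pass without cells holding other types' RNA, nor did Plau (-0.88) without dysentery replicate 2. For Eln and Plau the acupuncture levels of Mrgprg-negative cells stood apart from the other levels.

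The remaining genes rest on lower counts or on single libraries. Plxdc2 (-1.19, SE 0.15) was at 18.6 and 22.7 CPM in acupuncture members against 49.5 and 59.5 CPM in dysentery members, and at 29.2 and 33.4 CPM against 35.4 and 38.5 CPM in Mrgprg-negative cells, and did not pass without dysentery replicate 2 (-1.04). Apod (4.89, SE 0.53) stayed at or below 2.42 CPM in members of all libraries, and stood at 3.56 and 12.6 CPM with acupuncture against 112 and 136 CPM in dysentery in Mrgprg-negative cells, and did not pass with Mrgprg-negative cells matched on UMIs (5.03, adjusted p = 0.063). H19 (-2.51, SE 0.39), an imprinted non-coding RNA, was at 18.3 and 10.1 CPM against 35.6 and 12.2 CPM in members, and at 35.9 and 43.4 CPM against 8.41 and 8.51 CPM in Mrgprg-negative cells. Sfrp2 (-4.10, SE 0.66), a Wnt modulator, was at 1.47 and 3.28 CPM against 0.423 and 63.3 CPM in members, and turned to 1.11 without dysentery replicate 2. Olah (4.07, SE 0.57) was at -0.063 with Mrgprg-negative cells matched on UMIs and at 1.71, not past the threshold, without dysentery replicate 2. Without cells positive for both Myoc and Igfbp3 in either class 6 genes passed, and Plau (-0.78), H19 (-2.59) and Sfrp2 (-3.56) did not. The remaining gene, named after its value was seen, was Cpe (-1.16, SE 0.17), carboxypeptidase E.

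**Figure D5:**
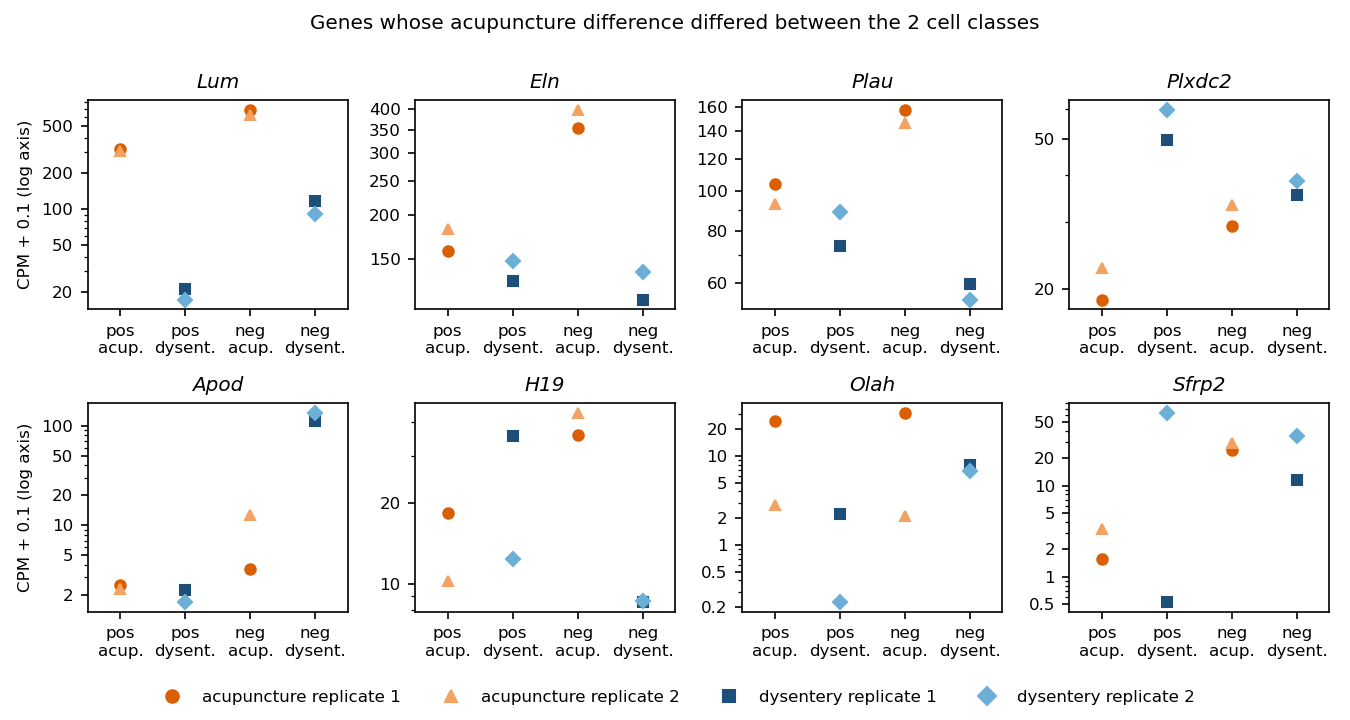
Levels in CPM plus 0.1 (y axis, log scale, 1 panel per gene) in Mrgprg-positive (pos) and Mrgprg-negative (neg) cells of the acupuncture and dysentery libraries (x axis, 2 points per column) for 8 genes whose acupuncture difference differed between the classes. Eln was at 158 and 183 CPM in acupuncture members against 130 and 148 CPM in dysentery members, and at 355 and 398 CPM against 115 and 138 CPM in Mrgprg-negative cells.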

How the data were processed

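Fascia was digested with collagenase and elastase and libraries were made with 10x Genomics 3′ chemistry, per the labels' protocols. Per the submitters' processing notes, Cell Ranger 6.0.1, which uses STAR, made the matrices; the builds listed there are mRatBN7.2 and GRCh38.p13, with no role stated. The authors deposited matrices of raw, unnormalized UMI counts; the barcode and feature lists hold other content, namely names. The 4 libraries held 70499776 and 93897006 (acupuncture) and 53066666 and 79461544 UMIs (dysentery). The 30560 gene rows were kept apart by identifier.

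Counts were summed per library and class in Python 3.11.15 (numpy 2.4.6, pandas 2.3.3, scipy 1.17.1) and tested in R 4.3.3 with edgeR 4.0.16 (glmQLFit, TMM factors, filterByExpr, Benjamini-Hochberg, threshold 0.05), checked on simulated data. The comparison of classes had the library as a block; that of groups had none. A printed CPM is the UMI count per 1000000 UMIs of the summed cells, and fold changes come from the TMM-scaled fit (SE is the log2 fold change over the square root of F). No doublet caller was run. Alternatives were DESeq2 1.42.0, no TMM, no filter, stricter cell rules, each library left out and the other block. The genes named were the 10 largest rises and falls past the threshold per comparison with a level of at least 20 CPM (classes; same direction in all libraries) or 10 CPM (groups, not overlapping), 5 each way for the interaction, and up to 6 per list. The members and gene lists were chosen with earlier results of these data known. Of 748 listed genes, 45 had no row under their symbol. Some genes that this rule names are not reported here.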

Additional observations from a re-analysis of the deposited data

Results flagged for a closer look

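Of the 9 genes that passed, 8 are given here, all but Cpe, which the rule for named genes leaves out. In these the difference between acupuncture and dysentery differed between Mrgprg-positive and Mrgprg-negative cells by a test of that difference itself (edgeR's quasi-likelihood test of the interaction, 13030 genes tested). The interaction, as the acupuncture difference in Mrgprg-positive minus that in Mrgprg-negative cells on the log2 scale, was 4.89 for Apod, 4.07 for Olah and 1.34 for Lum. It was -4.10 for Sfrp2, -2.51 for H19, -1.29 for Eln, -1.19 for Plxdc2 and -1.16 for Plau. Sfrp2 turned to 1.11 without dysentery replicate 2, and Olah to -0.063 with Mrgprg-negative cells matched on UMIs, where Apod was 5.03 and not past the threshold. Plau (-0.78), H19 (-2.59) and Sfrp2 (-3.56) did not pass without cells positive for both Myoc and Igfbp3. Eln was -0.73 and not past the threshold without cells holding other types' RNA, and Lum was 0.98 and not past the threshold there.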

How the results depend on the processing

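For the comparison of classes, 1277 genes differed, and 565 without cells holding other types' RNA, 825 with Mrgprg-negative cells matched on UMIs, 224 with no replicate block of library, and between 822 and 1344 with 1 library left out. Hba-a2 turned to -0.71 without cells holding other types' RNA. For acupuncture in members, 359 genes differed, and 960 with no filter on low counts, 128 without cells holding other types' RNA and between 240 and 836 with 1 library left out. The labels give no shared animal or day, and same-numbered libraries correlated at r = 0.12 in their deviations, so the numbers were not taken as pairs; with the replicate block 600 genes differed, 350 of them among the 359. For the interaction, 9 genes passed, and 3 with matched Mrgprg-negative cells, 36 with at least 2 Mrgprg UMIs, 15 with a gate of 60 per 10000, 132 with no filter, 30 without cells holding other types' RNA, 28 without the deepest 5% of gate cells and between 6 and 139 with 1 library left out. Olah turned to -0.063 with matched cells and Sfrp2 ranged between -4.55 and 1.11 with 1 library left out. The share difference of -7.81 percentage points ranged between -21.8 and 6.21 with 1 library left out and turned without dysentery replicate 2. The cause was not tested in these cases; leaving out cells also lowered the counts behind each sum. Without cells positive for both Myoc and Igfbp3 in either class, 927 genes differed between classes and 6 passed for the interaction. DESeq2 called 1002, 301 and 9 genes in the comparisons, in that order. Dysentery replicate 1, with 303 members, limits the precision of the group comparison.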
